A study of Homo sapiens with 6 samples.

Results

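FSBP and RAD54B are a pair of human genes that overlap on chromosome 8, and their RNA was followed here in cardiomyocytes made from stem cells and exposed to alcohol. The pair, 2 of the 21134 genes measured, was chosen by the counts of FSBP, which were 0 in the untreated libraries and far above 0 in the alcohol libraries. For that reason every FSBP value, and every value of RAD54B and of the sum between alcohol and control, is given as a description with no test. The question was how far the counts of each gene, and of both genes summed, differed between the groups.

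RAD54B (NCBI Gene 25788) encodes a DNA translocase of the SNF2 family, a motor protein that moves along DNA during homologous recombination, the repair of a broken DNA end from an intact copy. Its paralog RAD54L has a related role. FSBP (NCBI Gene 100861412) encodes the fibrinogen silencer binding protein, a DNA-binding protein named for its repression of the gene of the fibrinogen gamma chain. Homologous recombination is mostly used by dividing cells after DNA replication, and mature cardiomyocytes seldom divide.

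RNA was sequenced from 6 libraries of stem cell-derived cardiomyocytes, which the labels call hiPSC-CMs. All cells came from the H9 line, a human embryonic stem cell line, and the labels name no genetic change. The control group was 2 libraries of untreated cells, the alcohol group 2 libraries of cells given 100 mM alcohol for 24 h, and the co-treated group 2 libraries of cells given 100 mM alcohol with 1 μM losartan, a blocker of the angiotensin II type 1 receptor, for 24 h. The labels do not say whether the replicates were separate cultures, so p-values measure the spread between these libraries, which may be technical. Permuting 2 libraries against 2 in an exact test cannot give a two-sided p below 0.333, so the tests used are those of a fit across all genes.

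The expected counts, which are estimates of the reads of each gene, summed to between 4898287 and 5051448 per library. The cardiomyocyte markers were present in every library, with TNNT2 (cardiac troponin T) at 3193.51 to 3728.26 FPKM, which is the count scaled by gene length and library size. Summed over 18 proliferation genes, the level was 1160 and 1935 CPM (counts scaled to the library total) in control, 898 and 1128 in alcohol, and 1608 and 1263 in co-treated libraries, so control replicate 2 stood highest. None of the lists of other cell types was at 0. The 7 smooth muscle genes summed to 3910 and 3548 CPM in control and to between 2024 and 3224 CPM in the 4 treated libraries. The 6 endothelial genes summed to 41.43 and 36.1 CPM in control and to between 45.83 and 63.31 CPM in treated libraries, and the 8 genes of endoderm and liver to 70.67 and 73.29 CPM and to between 87.17 and 92.32 CPM. These 3 lists thus separated control from treated libraries, as the counts of FSBP and RAD54B do, and their part in the values of the pair was not tested. The 9 fibroblast genes, at 2284 to 2849 CPM, the 6 genes of pluripotent cells, at 26.92 to 46.27 CPM, and the 14 cardiomyocyte genes, at 50596 to 60131 CPM, overlapped or met between control and treated libraries.

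Both genes are transcribed from the minus strand of chromosome 8, so strand alone cannot separate their reads. On the GRCh38 build RAD54B spans chr8:94371960-94475115 and FSBP chr8:94427716-94436944, a stretch of 9229 bases inside the 103156 bases of RAD54B. The main RAD54B transcript has 15 exons, and FSBP lies wholly in its intron between exon 3 and exon 4. A second RAD54B transcript has 4 exons. It starts with the same exons as the 15-exon transcript and ends in an exon, its exon 4, that contains the second exon of FSBP (chr8:94431947-94432656 in the GENCODE annotation). Another RAD54B transcript, of 11 exons, shares no base with FSBP.

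The parts that tell these transcripts apart are short. In the deposited lengths FSBP measures 5418 bases, of which its first exon, the sole exon not shared with RAD54B, holds 450 bases or 8.31%. The remaining 4968 bases, 91.7%, are in the last exon. If reads were spread evenly, the FSBP counts of the 4 treated libraries would include 3.3 to 6.8 counts per library on the first exon, and all others would lie where the 4-exon RAD54B transcript can also be read. In the 4-exon RAD54B transcript, exons 1 to 3 hold 382 bases or 7.14% of a length of 5350 bases, which assumes that it ends where FSBP ends.

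FSBP was not listed among the deposited counts of either control library, so its counts there were set to 0. Its expected counts were 54.90 and 82.44 in the alcohol libraries and 64.20 and 40.12 in the co-treated libraries. All 4 treated libraries were thus above both control libraries, and the alcohol and co-treated ranges overlapped. A count of 0 still allows 3 counts, which is 0.594 and 0.596 CPM in the control libraries. With that floor, and with the deposited assignment of shared reads taken as given, mean FSBP in CPM was 23.3-fold the control level in alcohol libraries. In co-treated libraries it was 17.7-fold. The floor covers counting error only and not the assignment of shared reads, so these folds are not lower bounds. In FPKM, FSBP was at 1.99 and 3.08 in alcohol and at 2.40 and 1.46 in co-treated libraries. Its mean count was 68.7 ± 19.5 (SD, n = 2) with alcohol and 52.2 ± 17.0 (SD, n = 2) with co-treatment, and the ratio of co-treated to alcohol was 0.762 in CPM. Of all 14926 genes tested, edgeR's quasi-likelihood test called 10 (0.067%) between alcohol and control.

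RAD54B had the opposite order. Its expected counts were 111.14 and 147.21 in control, 64.24 and 24.01 in alcohol, and 50.69 and 75.19 in co-treated libraries. Both control libraries were above all 4 treated libraries, and the 2 alcohol libraries differed from each other more than the co-treated ones did. In FPKM, RAD54B was at 4.97 and 6.69 in control, 3.45 and 1.59 in alcohol, and 3.35 and 3.96 in co-treated libraries. The highest of the 6 libraries was 5.97 times the lowest in CPM. By these bulk counts alone, fewer cells that express the gene, less of its RNA per cell, and shared reads assigned to FSBP in place of RAD54B cannot be told apart.

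**Figure D1:**
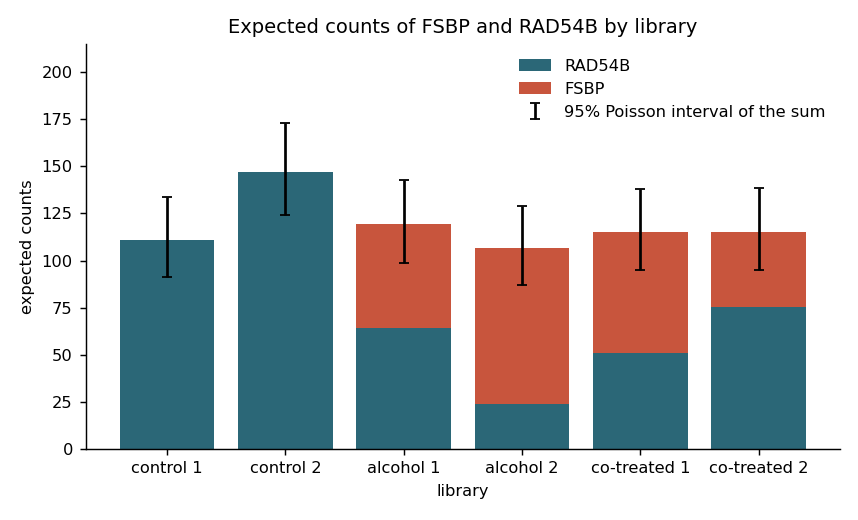
Expected counts (y axis) of RAD54B and FSBP, stacked, in each of the 6 libraries (x axis), with the 95% Poisson interval of the summed count. FSBP is absent from the 2 control bars, while the tops of all 6 bars lie between 106.45 and 147.21 counts.

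The sum of both genes varied far less than either. The summed counts were 111.14 and 147.21 in control, 119.14 and 106.45 in alcohol, and 114.89 and 115.31 in co-treated libraries. The 3 groups overlapped: control replicate 1 lay between the 2 alcohol libraries, and both co-treated libraries lay between the 2 control libraries. The highest of the 6 summed values was 1.35 times the lowest in CPM, and control replicate 2 was the highest. The 95% Poisson intervals of the counts, which cover counting error only, ran from 87.2 to 128.7 in the lowest library, alcohol replicate 2, and from 124.4 to 173.0 in the highest. The summed FPKM was 4.97 and 6.69 in control, 5.44 and 4.67 in alcohol, and 5.75 and 5.42 in co-treated libraries. Group means of the summed count were 129 ± 25.5 for control, 113 ± 8.97 for alcohol and 115 ± 0.297 for co-treatment (SD, n = 2 each).

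**Figure D2:**
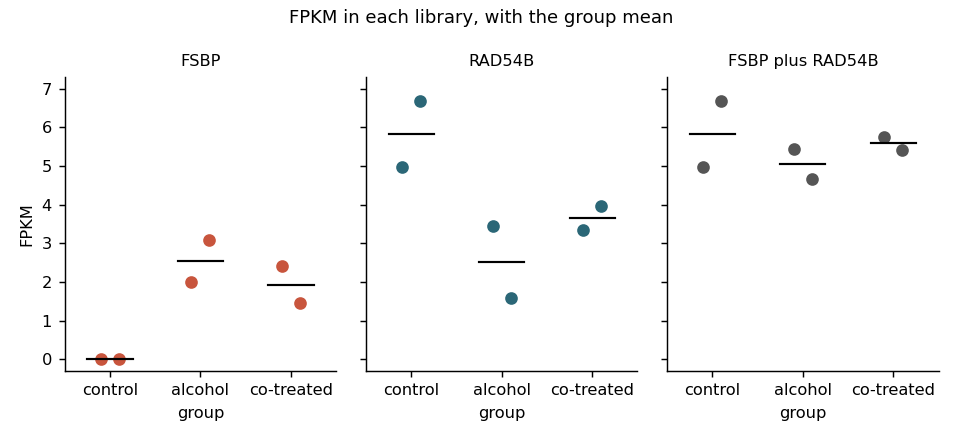
FPKM (y axis) of FSBP, RAD54B and their sum by group (x axis), with a point for each library and a line at the group mean. The points of FSBP and of RAD54B separate control from treated libraries in opposite directions, and those of the sum, between 4.67 and 6.69, overlap.

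The division of the pair's counts, as deposited, set both control libraries apart from all treated ones. FSBP held 0% of the summed counts in control replicates 1 and 2, with upper exact Clopper-Pearson limits of 3.3% and 2.5%. It held 46.1% (37.0 to 55.6%) in alcohol replicate 1 and 77.4% (68.2 to 84.9%) in alcohol replicate 2. In the co-treated libraries it held 55.9% (46.1 to 64.9%) in replicate 1 and 34.8% (26.1 to 44.2%) in replicate 2. These intervals treat each count as a read of known origin, which most counts of the pair are not, so they are too narrow for the division itself, and whether it differed between the libraries of a group was not tested. Scaled by length, as a share of the summed FPKM, FSBP held 36.6% and 66.0% in alcohol and 41.7% and 26.9% in co-treated libraries.

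For RAD54B alone, the fitted log2 fold change between alcohol and control was -1.56 ± 0.34 (SE), with a 95% interval from -2.31 to -0.82, as a description. The value was -2.44 when alcohol replicate 1 was left out and -1.01 when replicate 2 was, as the 2 libraries differ in RAD54B. Between co-treated and control it was -1.05 ± 0.33, a fold of 0.48 with an interval from 0.29 to 0.79, and it missed the threshold (edgeR, adjusted p = 0.195). The same test called 54 genes (0.362%) between these groups. Without alcohol replicate 1, and likewise without alcohol replicate 2, the log2 fold change of RAD54B was again -1.05, with an SE of 0.24 in place of 0.33. The alcohol libraries are not compared here, but they enter the spread that all groups share in the fit. Over the alternatives tried, the adjusted p ran from 0.0489 to 0.568. Between co-treated and alcohol the log2 fold change of RAD54B was 0.51 ± 0.37 (edgeR, adjusted p = 0.923), with an interval from -0.28 to 1.30, where 2 genes (0.0134%) were called. This value was -0.045 without alcohol replicate 2, the library with the lowest RAD54B count, and 1.39 without alcohol replicate 1. The control and alcohol libraries that enter these comparisons are also those by which the pair was chosen. FSBP and RAD54B share reads, so FSBP at 0 in control and high in alcohol can itself go with RAD54B high in control and low in alcohol. The p-values of RAD54B are therefore not independent of the choice of the pair, and no conclusion is drawn from them.

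For the sum, the fitted log2 fold change between alcohol and control was -0.22 ± 0.19, with a 95% interval from -0.62 to 0.19, as a description. Between co-treated and control it was -0.19 ± 0.19, which is a fold of 0.88 with an interval from 0.66 to 1.16 (edgeR, adjusted p = 0.742). Between co-treated and alcohol it was 0.03 ± 0.19, a fold of 1.02 with an interval from 0.77 to 1.35 (edgeR, adjusted p = 0.994). With 2 libraries a group, a difference in the sum was not detected in the comparisons tested. The intervals leave room for a sum up to 1.16 times or down to 0.66 times the control level in co-treated libraries. FSBP is a part of the sum, and the libraries by which the pair was chosen enter these comparisons too. No conclusion is therefore drawn from the p-values of the sum. Without control replicate 2 the value for co-treated against control was 0.017 and that for alcohol against control was 0.0018.

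**Figure D3:**
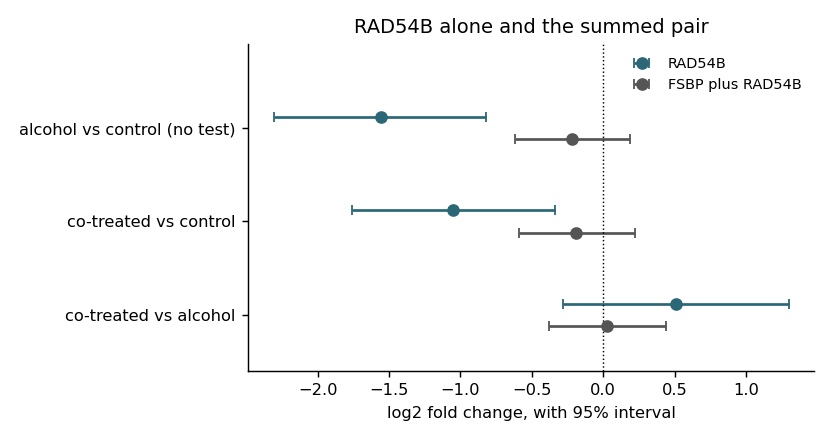
Fitted log2 fold changes (x axis) of RAD54B and of the summed pair in the 3 comparisons (y axis), with 95% intervals from edgeR. The intervals of the sum cross 0 in all 3 comparisons, and those of RAD54B lie below 0 in both comparisons with control. The control and alcohol libraries are those by which the pair was chosen, so these intervals are a description.

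The deposited length of RAD54B also differed between libraries. RSEM, the program for expected counts that the submitters' processing notes name, writes as the length of a gene the mean over its transcripts, weighted by how many molecules it assigned to each, so this value shows which transcripts the reads were given to. The 15-exon transcript measures 3074 bases. The RAD54B length was 4392.20 and 4340.40 bases in control, 3666.49 and 3074.03 in alcohol, and 3076.62 and 3759.03 in co-treated libraries. It was longest in the control libraries, where FSBP was not listed. In alcohol replicate 2 and co-treated replicate 1, the libraries with the most FSBP counts, it equalled that of the 15-exon transcript to within 3 bases. Of the 3 RAD54B transcripts the 4-exon one alone is longer than 3074 bases if it ends with FSBP, so a greater length means that RAD54B reads were given to it. The FSBP length was 5418 bases in each of the 4 libraries that list it.

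Taking the 4-exon transcript at 5350 bases and the others at 3074 bases, the RAD54B counts were split by the deposited length. The 4-exon transcript then held 78.4 and 101.0 counts in control, 24.4 and 0.0 in alcohol, and 0.1 and 32.2 in co-treated libraries. Added to the FSBP counts, which lie mostly in the same last exon, this gave 78.4 and 101.0 in control, 79.3 and 82.4 in alcohol, and 64.3 and 72.3 in co-treated libraries. The highest of these 6 values was 1.57 times the lowest. Group means were 89.7 ± 16.0 for control, 80.8 ± 2.19 for alcohol and 68.3 ± 5.66 for co-treatment (SD, n = 2 each). The control and alcohol ranges overlapped, and the co-treated libraries were both below the other 4.

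The rest of the RAD54B counts, those on the transcript that encodes the full translocase, were 32.7 and 46.2 in control, 39.8 and 24.0 in alcohol, and 50.6 and 43.0 in co-treated libraries. The ranges of control and alcohol overlapped, as did those of control and co-treated, so the order of the deposited RAD54B counts (both control libraries above all treated ones) was not seen in this part of them. The group means were 39.5 ± 9.55 for control, 31.9 ± 11.2 for alcohol and 46.8 ± 5.37 for co-treatment (SD, n = 2 each). This split is an estimate from 1 number per library and was not tested. With the other RAD54B reads placed on the 11-exon transcript of 2181 bases, the rest held 12.2 to 25.8 counts and the last exon 89.1 to 123.6. This choice scales the rest by the same factor in every library, so it cannot change their order and is no check on it.

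**Figure D4:**
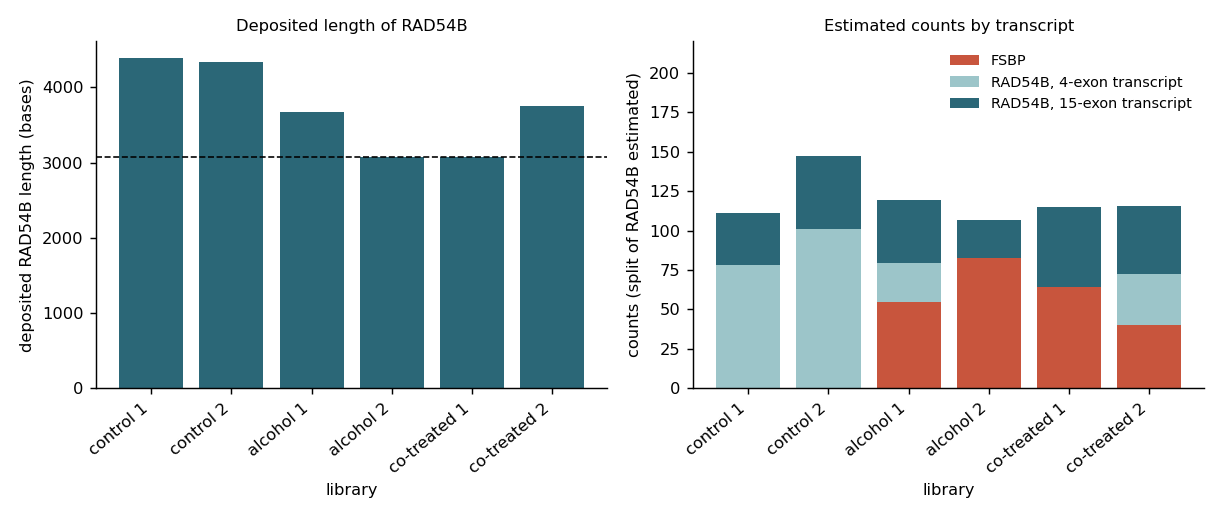
Left, the deposited RAD54B length in bases (y axis) in each library, with a dashed line at the 3074 bases of the 15-exon transcript. Right, counts of FSBP and of RAD54B split between its 4-exon and 15-exon transcripts as estimated from that length. FSBP and the 4-exon transcript together hold between 64.3 and 101.0 counts in every library.

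The pattern of FSBP was also counted over all genes. Of 383 genes, FSBP among them, that share at least 100 exonic bases with a gene on the same strand and reach 30 counts in some library, 28 (7.31%) were at 0 in another library. Of 12133 other genes that reach 30 counts, 12 (0.0989%) were. Most of the 28 are read-through genes, such as HSPE1-MOB4 and CORO7-PAM16, which span a pair of neighbouring genes. When each of the 28 was summed with its partners, the highest library was within 2 times the lowest for 25 of them and within 1.5 times for 21, with a median of 1.35, the value of FSBP with RAD54B. Where the partners hold most of the counts, such a sum is steady whatever the member does. The partners alone were not set beside it, and some loci enter the 28 more than once. These sums are therefore a description and no test of how shared reads were divided. FSBP and HYPK, a gene that shares bases with the read-through gene SERF2-C15ORF63, were the 2 of the 28 at 0 in both control libraries alone. Another 2 were at 0 in both alcohol libraries alone, and 1 in both co-treated libraries alone. For HYPK summed with its partner, the highest library was 2.17 times the lowest. HYPK, HSPE1-MOB4 and CORO7-PAM16 were named after their values were seen.

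The fibrinogen chain genes, among them the gene FSBP is named for, were at low levels. FGG, the gamma chain, had 1 and 0 counts in control, 1 and 5 in alcohol, and 3 and 8 in co-treated libraries, too few to be tested. FGB, the beta chain, had 85.82 and 74.80 counts in control, 64.29 and 99.08 in alcohol, and 107.35 and 70.85 in co-treated libraries, so all 3 groups overlapped. Its log2 fold change between co-treated and control was 0.12 ± 0.26 (edgeR, adjusted p = 0.894). FGA, the alpha chain, had between 5 and 13 counts in every library. Of the 2 chains tested, edgeR, DESeq2 and limma called 0 in each comparison, with 0 at an unadjusted edgeR p under 0.05.

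RAD54B was set beside 38 other genes of homologous recombination, all of which passed the filter on low counts. Between alcohol and control, edgeR, DESeq2 and limma called 0 of the 38 at an adjusted p under 0.05. At an unadjusted p under 0.05 edgeR had 5 of 38 lower (13.2%, against 5.78% of all genes) and 0 higher (against 5.27%). The median log2 fold change of the list was -0.11, against -0.003 for all genes. The 18 proliferation genes were lower with alcohol too: 14 were at an unadjusted p under 0.05 (77.8%), with a median of -0.62, and 0 were called by edgeR. BUB1, a kinase of the mitotic checkpoint, was called by DESeq2, and by edgeR with the replicate block or with at least 10 counts in every library. The part of proliferation in the homologous recombination values was not tested. Without control replicate 1 the median of the homologous recombination list was -0.15. Control replicate 2, the library with the highest proliferation sum, was then the only control.

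The 5 genes that were lower with alcohol at an unadjusted p under 0.05 act at several steps. XRCC2, a gene of strand invasion, had 154.43 and 110.98 counts in control, 87.12 and 66.51 in alcohol, and 107.68 and 107.31 in co-treated libraries. Its control libraries were above all treated ones, and its alcohol libraries were the lowest, with a log2 fold change of -0.80 ± 0.22 between alcohol and control (edgeR, adjusted p = 0.179). BRCA2, a mediator of recombination, was at -0.66 ± 0.21 (adjusted p = 0.262) in the same fit. BLM, a helicase, and EXO1, a nuclease, both used to trim broken ends, were at -0.82 and -0.71, and SLX4, a scaffold of nucleases that cut joined strands, was at -0.60. The adjusted p of these 3 lay between 0.254 and 0.438.

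Between co-treated and control, edgeR, DESeq2 and limma called 0 of the 38 genes. At an unadjusted p under 0.05 edgeR had 1 of 38 higher (2.63%, against 6.26% of all genes), RAD50 of the end-binding complex at 0.30 ± 0.12 (adjusted p = 0.32), and 0 lower (against 6.37%). The median was 0.07. Between co-treated and alcohol these tools again called 0, and 3 of 38 were higher (7.89%, against 2.84%) and 0 lower (against 2.71%), with a median of 0.16. The 3 were BRCA2 at 0.59, BLM at 0.59 and BRIP1, a helicase that binds BRCA1, at 0.43, with edgeR adjusted p from 0.857 to 0.896. Of the 18 proliferation genes, 10 were higher in co-treated than in alcohol libraries at an unadjusted p under 0.05, with a median of 0.42, and edgeR, DESeq2 and limma called 0. Between co-treated and control 2 of the 18 were lower at that p, with a median of -0.19 and 0 called by these tools. The comparisons share the control or alcohol libraries.

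By step, the medians of log2 fold change between alcohol and control were -0.06 for 8 genes of end resection, -0.11 for 8 of the BRCA complexes and mediators, -0.22 for 10 of strand invasion, 0.02 for 3 subunits of RPA, which coats single strands, and -0.16 for 8 of resolution and dissolution. RAD54L, the paralog of RAD54B, had 64 and 59 counts in control, 63 and 37 in alcohol, and 49 and 60 in co-treated libraries. These ranges overlapped, and its log2 fold changes against control were -0.32 ± 0.29 with alcohol and -0.20 ± 0.28 with co-treatment (edgeR, adjusted p = 0.752 and 0.832). Between alcohol and control, RAD52, a mediator of strand annealing, was at -0.11 and BRCA1, which acts in end resection and repair choice, at -0.09, with edgeR adjusted p of 0.921 and 0.907.

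**Figure D5:**
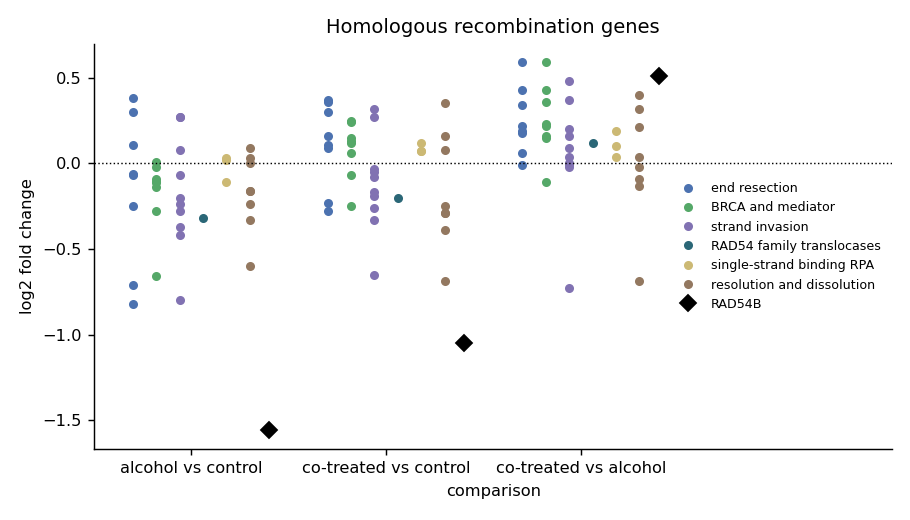
Log2 fold change (y axis) of 38 homologous recombination genes (circles, coloured by step) and of RAD54B as deposited (diamonds) in the 3 comparisons (x axis). In both comparisons with control RAD54B, at -1.56 and -1.05, lies below the lowest of the other genes, at -0.82 and -0.69. The pair was chosen by FSBP in the control and alcohol libraries, and RAD54B shares reads with FSBP. The place of RAD54B is therefore a description and no test.

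The 10 other protein-coding genes in the table within 500 kb of RAD54B were given as a measure of the neighbourhood. edgeR, DESeq2 and limma called 0 of them in every comparison, and the median log2 fold changes were 0.07 for alcohol against control, 0.09 for co-treated against control and 0.12 for co-treated against alcohol. VIRMA, a subunit of the RNA methylation complex and the nearest gene past the start of RAD54B (listed as KIAA1429), had 455 and 449 counts in control, 504 and 498 in alcohol, and 441 and 572 in co-treated libraries. GEM, a small GTPase and the nearest gene past its end, had 96 and 61, 120 and 67, and 86 and 78 counts in the same order. The groups overlapped for GEM, and the 2 co-treated libraries of VIRMA lay on either side of all others. At an unadjusted p under 0.05, edgeR had 0 of 10 between alcohol and control, where 5.27% of all genes were higher and 5.78% lower. It had 1 of 10 higher in each of the other comparisons, where 6.26% and 2.84% of all genes were. These were INTS8, a subunit of Integrator, at 0.33 ± 0.14 between co-treated and control (adjusted p = 0.337), and ESRP1, an epithelial splicing factor, at 0.71 ± 0.28 between co-treated and alcohol (adjusted p = 0.862). CCNE2, a cyclin of S-phase entry, was at -0.49 ± 0.28 between alcohol and control (adjusted p = 0.562). The log2 fold changes between alcohol and control of PDP1, CDH17, DPY19L4, NDUFAF6 and TP53INP1 were between 0.01 and 0.25.

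By Pearson's r of log2 CPM over the 6 libraries, the 5 genes most like FSBP were TMEM80, EMID1, EFNB3, FAM189A2 and LTBP2, with r from 0.992 to 0.987. Their own values moved far less than those of FSBP: the range over the libraries was 0.59 to 2.30 in log2 CPM, against 5.37 for FSBP. The 5 most like RAD54B were CYP51A1, INSIG1, RBM8A, GABRB2 and TGFBRAP1, with r from 0.993 to 0.987. For the sum they were OTUD4, ROMO1, C2orf47, KCNAB1 and HERC2P9, with r from 0.994 to 0.974. With 6 libraries in 3 groups the 5 listed for each did not stand alone. Of the 14926 genes tested, 89 reached an r of 0.95 with FSBP, 82 with RAD54B and 14 with the sum.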

How the data were processed

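Expected counts, FPKM and gene lengths per library, and a series table of the same FPKM, were deposited by the authors. The submitters' processing notes name HISAT2 2.0.4, Bowtie2 2.2.5, RSEM 1.2.12 and hg38. Of the deposited expected counts above 0, 33.9% are not whole, and they were rounded. Genes missing from a library's file were set to 0. Groups follow the treatment given in the labels.

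The test was edgeR 4.0.16's quasi-likelihood F test (R 4.3.3), two-sided, fitted to all 6 libraries after filterByExpr with TMM factors, and p-values were adjusted by Benjamini-Hochberg over 14926 genes with a threshold of 0.05. For the sum, both genes were replaced by 1 row of summed counts and the table was refitted. The code was tested on simulated data. CPM of single libraries is the expected count scaled to the library total, and CPM for likeness had a prior count of 2. Alternatives were DESeq2 1.42.0, limma 3.58.1 on log2(FPKM + 1) and log2(FPKM + 0.1), RLE size factors, the replicate block, no filter, a filter of 10 counts in all libraries, 2 groups at a time and each library left out. Other alternatives were FPKM in place of counts for the shares, the length recovered from count and FPKM, 300 shared bases and 50 counts. The split of RAD54B counts by transcript and its alternatives were chosen after seeing the data.

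Coordinates of genes are from RefSeq (GRCh38.p14), exons from GENCODE 29 matched by RefSeq transcript, in place of the RefSeq exons planned; 20016 of 21134 genes (94.7%) were matched. The first-exon length of FSBP and the length of the 15-exon transcript are GENCODE lengths extended to the RefSeq ends. Named genes are FSBP, RAD54B, the 3 fibrinogen chains, coding genes within 500 kb, the 5 genes most alike, and of the recombination list RAD54L, RAD52, BRCA1, BRCA2 and any member at an unadjusted p under 0.05. Some genes of the planned recombination list are not reported here. The members and lists were chosen with earlier results of these data known. MRE11 and SEM1 were read under their older symbols MRE11A and SHFM1. Counting intervals are 95%, exact, and cover counting error only. The lists were homologous recombination, fibrinogen chains, proliferation, cardiomyocyte, fibroblast, smooth muscle, endothelial, pluripotent, and endoderm and liver.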

Additional observations from a re-analysis of the deposited data

How the results depend on the processing

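The fitted log2 fold change of FSBP against control, whose counts are 0, depends on the method and on any offset added. It was 9.09 for alcohol and 8.70 for co-treated by edgeR, and 8.52 and 8.12 by DESeq2. By limma it was 1.80 and 1.53 on log2(FPKM + 1), and 4.69 and 4.30 on log2(FPKM + 0.1). With FPKM in place of counts the FSBP share was 36.6, 66.0 and 41.7% in alcohol replicates 1 and 2 and co-treated replicate 1. At a minimum of 50 counts, 4.83% of genes that share exonic bases had a library at 0, against 0.0366% of others.

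With each library left out in turn, the log2 fold change for co-treated against control ran from -1.36 to -0.81 for RAD54B, from -0.36 to 0.017 for the sum, from 8.31 to 8.99 for FSBP and from -0.034 to 0.07 for the median of the recombination list. For alcohol against control it ran from -2.44 to -1.01 for RAD54B, from -0.38 to 0.0018 for the sum and from -0.18 to -0.05 for the list. For co-treated against alcohol it ran from -0.045 to 1.39 for RAD54B, from -0.07 to 0.12 for the sum, from -0.78 to -0.10 for FSBP and from 0.08 to 0.21 for the list. The sum passed the threshold under none of the alternatives tried (adjusted p from 0.702 to 0.994 against control), and RAD54B did so once, without alcohol replicate 1. Where a group is left with 1 library, that library is assumed to vary like the others. FSBP could not be fitted where 10 counts were required in every library.

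Groups share replicate numbers, but the labels give the numbers no meaning, and same-numbered libraries deviated together with r of 0.114, -0.016 and 0.041. With the replicate number as a block, RAD54B was at -1.05 (adjusted p = 0.161) and the sum at -0.19 (adjusted p = 0.721) for co-treated against control, and at 0.51 and 0.027 for co-treated against alcohol. Over all genes the block called 48, 136 and 5 genes in the 3 comparisons, against 10, 54 and 2 without it, DESeq2 called 72, 123 and 5, no filter 2, 15 and 1, and the 10-count filter 26, 78 and 0. limma on log2(FPKM + 1) called 0, 2 and 1, limma on log2(FPKM + 0.1) called 2, 3 and 2, and fits of 2 groups at a time called 3, 158 and 4. With each library left out the counts ran from 1 to 220, 2 to 184 and 1 to 24, and the 220 and 24 are without alcohol replicate 1.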
